A study of Homo sapiens with 15 samples.

Results

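The genes described are 10 transcription factors and structural genes that are widely used to follow the epithelial-mesenchymal transition (EMT): the repressors ZEB1, ZEB2, SNAI1 and SNAI2, the factors TWIST1, TWIST2, PRRX1 and FOXC2, and the mesenchymal markers VIM and CDH2. They were chosen as a list of symbols, and the Ensembl identifiers of the deposited table were mapped to those symbols. Of the 31352 genes in the table, 8 of the 10 members were listed, 4 carried enough reads to be tested (VIM, ZEB1, SNAI1 and SNAI2), and 4 were listed but stayed under the filter on low counts (ZEB2, CDH2, PRRX1 and FOXC2). Expression of TWIST1 and TWIST2 was not analysed here.

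The study measured polyadenylated RNA by RNA-seq in 15 libraries of a human cell line. Its 5 groups of 3 libraries were cells with an empty vector (EV), described as isogenic to the others, and 4 groups that expressed a NOTCH intracellular domain, NICD1, NICD2, NICD3 or NICD4. Doxycycline, the drug that switches on an inducible promoter, drove the NICD. The NICD is the part of a NOTCH receptor that is released inside the cell and acts with the DNA-binding protein RBPJ on target genes, so its expression stands in for an activated receptor. The doxycycline dose and time, whether EV cells also received the drug, how many clones each line represents and whether the 3 libraries of a group came from separate cultures are not given in the sources used here. The p-values therefore measure only the spread between these libraries.

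The labels disagree on the cell line and on 1 library, and are garbled for another. They name the line HCT116, a colorectal carcinoma line, while the descriptions and the column names of the table carry U373, the name of an astrocytoma line. In the EV libraries the epithelial gene EPCAM stood at 155 CPM and KRT8 at 1079 CPM. The astrocyte filament gene GFAP stood at 1.66 CPM, and of the colorectal markers CDX1 had no read in EV. Of 13 listed colorectal markers, 4 stood at or over 1 CPM on average in EV, as did 5 of 14 listed astrocyte and glioma markers. Which line was used was not tested. The library titled NICD4 replicate 1 is called NICD3 in its other labels, and it was kept under its title. NICD4 changes from EV without it are given for the 4 tested members and for lists of related genes. The genotype of NICD3 replicate 1 is misspelled in a way that could be read as NICD2 or NICD3, and its title and source name say NICD3. Counts on the NOTCH genes did not check the labels by themselves: NOTCH1 was at 28.3 CPM in NICD1 and 30.8 CPM in EV, NOTCH3 at 11.8 CPM in NICD3 and 10.6 CPM in EV, and NOTCH4 at 1.94 CPM in NICD4 and 1.69 CPM in EV, none a called difference. NOTCH2, at 41.8 CPM in NICD2 and 31.8 CPM in EV, was called higher (limma adjusted p = 0.000195). It was called higher in NICD1 as well (adjusted p = 0.0165), as was NOTCH3 (adjusted p = 0.0483). Of the 4 receptor genes, 2 were called higher in NICD4, and 1 was called lower in NICD2 and 1 in NICD3. The NOTCH target HES1 was called higher in all 4 NICD groups (39.6, 105, 49.0 and 55.8 CPM against 19.7 CPM in EV). Levels are given as CPM, a gene's reads as a share of the library's scaled total, and a log2 change is a difference of log2(scaled reads + 1), which understates the change of genes with few reads. A gene was called changed at a Benjamini-Hochberg adjusted p under 0.05 over the 15122 genes tested.

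EMT is the programme by which epithelial cells loosen their junctions and take on a motile, mesenchymal form. The zinc finger proteins ZEB1, ZEB2, SNAI1 and SNAI2 bind E-box sequences in the promoters of epithelial genes such as CDH1, which encodes E-cadherin, and repress them through recruited chromatin enzymes. TWIST1, TWIST2, PRRX1 and FOXC2 act as further inducers, vimentin (VIM) is the intermediate filament of mesenchymal cells, and N-cadherin (CDH2) replaces E-cadherin in many cells that complete the transition. NOTCH signalling is known to induce SNAI1 and SNAI2 in several settings, and colorectal carcinoma lines differ widely in how much VIM and ZEB1 they carry.

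Among the 4 tested members the NICD groups split 3 ways. ZEB1 and VIM were lower than in EV in all 4 NICD groups, SNAI2 was higher in all 4, and SNAI1 was called lower in NICD1 and NICD4, with its values in NICD2 and NICD3 given below. Without NICD4 replicate 1, the library with conflicting labels, the NICD4 changes were -1.62 for ZEB1, -4.21 for VIM, 4.72 for SNAI2 and -0.89 for SNAI1 on the log2 scale, all still called. Against EV, 1 of 4 tested members was called higher in each NICD group, and 3, 2, 2 and 3 were called lower in NICD1, NICD2, NICD3 and NICD4. Calls were common over all genes: 34.6%, 28.6%, 32.5% and 35.7% of tested genes were called higher and 40.7%, 31.1%, 36.8% and 45.2% lower in NICD1, NICD2, NICD3 and NICD4. The counts of members alone say little beside these shares, and the sizes of the changes carry the description. With libraries scaled by their total reads alone, the share of calls that were higher fell from 45.9%, 47.9%, 46.9% and 44.1% to 28.0%, 29.9%, 26.7% and 29.2%. The median of all genes then moved from -0.11, -0.05, -0.08 and -0.18 to -0.53, -0.31, -0.48 and -0.66 on the log2 scale.

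**Figure D1:**
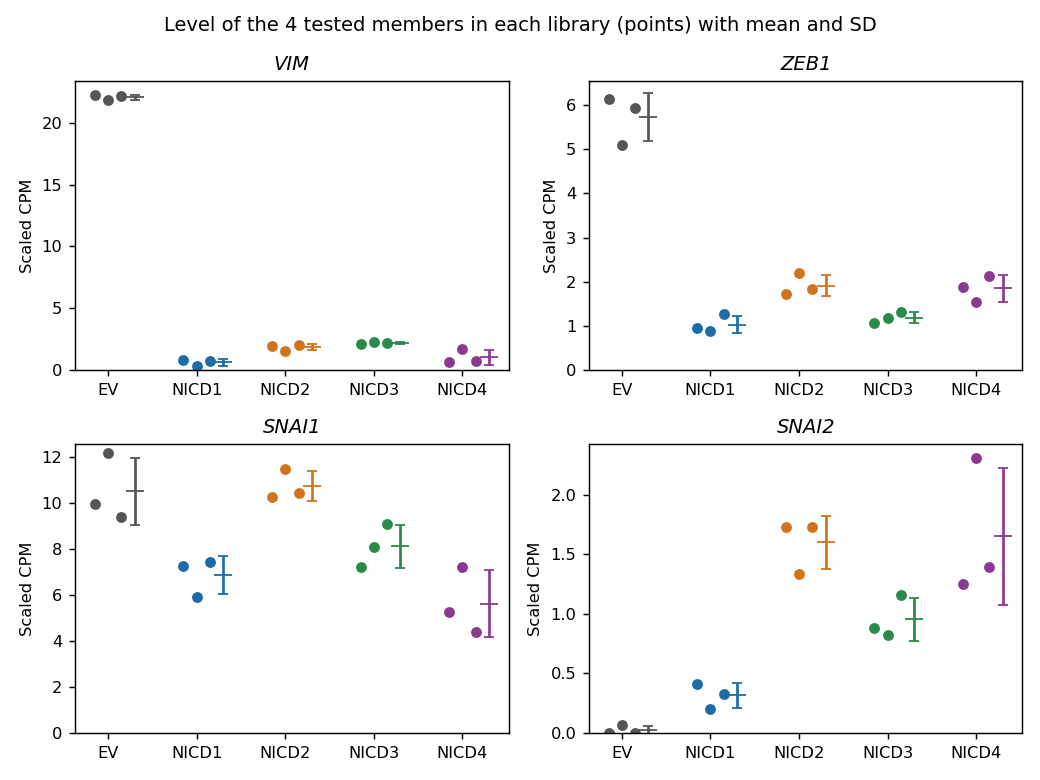
Scaled CPM (vertical axis, linear) of VIM, ZEB1, SNAI1 and SNAI2 in each of the 15 libraries; points are libraries, the horizontal mark is the group mean and the bar its SD (n = 3). VIM and ZEB1 have their 3 EV libraries above every NICD library, SNAI2 has its 3 EV libraries at or near 0, and SNAI1 overlaps between EV and NICD2.

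ZEB1, a repressor of epithelial genes with 2 zinc finger clusters that bind paired E-boxes, lies at chr10:31607424-31821599 on the plus strand of GRCh37. In EV it stood at 6.13, 5.10 and 5.94 CPM. It stood at 0.957, 0.880 and 1.26 CPM in NICD1 and at 1.73, 2.19 and 1.83 CPM in NICD2. Levels were 1.07, 1.19 and 1.31 CPM in NICD3 and 1.88, 1.54 and 2.14 CPM in NICD4. All EV libraries lay above all NICD libraries, and the NICD levels were low but counted, with 50 to 117 reads a group against 448 reads in EV. ZEB1 fell by 2.42 ± 0.19 (SE, n = 3 libraries a group, as for all changes below) on the log2 scale in NICD1 (limma adjusted p = 5.45e-08) and by 1.55 ± 0.19 in NICD2 (adjusted p = 7.46e-06). It fell by 2.22 ± 0.19 in NICD3 (adjusted p = 1.55e-07) and by 1.61 ± 0.19 in NICD4 (adjusted p = 1.82e-06). Over all tested genes, 4.81%, 6.38%, 4.50% and 12.4% fell further than ZEB1 in the 4 comparisons. In bulk RNA, fewer cells that express a gene and less of its RNA per cell cannot be told apart, which holds for every member.

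The size of the ZEB1 change moved with an adjustment for base composition. Its transcripts have 41.4% G and C against 58.2% for SNAI1. With the trend of log2 change on transcript GC content removed, ZEB1 fell by 1.82, 1.25, 1.74 and 0.78 in NICD1, NICD2, NICD3 and NICD4, the last with an adjusted p of 0.00154. Among the NICD groups, ZEB1 was higher in NICD2 than in NICD1 by 0.87 ± 0.19 (adjusted p = 0.00377) and higher in NICD4 than in NICD1 by 0.81 ± 0.19 (adjusted p = 0.00661). The latter call was lost with only NICD4 and NICD1 fitted (adjusted p = 0.0842). The order of the means was NICD1, NICD3, NICD4, NICD2 and EV, in which NICD1 did not differ from NICD3 by the test (0.20, 95% interval -0.20 to 0.60) nor NICD4 from NICD2 (-0.05, interval -0.45 to 0.35). NICD4 lay above NICD3 by 0.61 ± 0.19 (adjusted p = 0.0149), a call lost without NICD4 replicate 3 (0.50, adjusted p = 0.0598). That call was also lost with only those 2 groups fitted (adjusted p = 0.0592). NICD3 lay below NICD2 by 0.66 ± 0.19 (adjusted p = 0.0276), a call lost without NICD2 replicate 2 (-0.57) or 3 (-0.69) and without NICD3 replicate 1 (-0.59) or 2 (-0.67). That call was also lost with the GC trend removed (-0.49, adjusted p = 0.0895) and with no filter on low counts (adjusted p = 0.0732).

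MIR200CHG is the host transcript of miR-200c and miR-141, microRNAs known to target ZEB1 and ZEB2 mRNA and to be repressed in turn by ZEB proteins at E-boxes of their promoter. It lies at chr12:7072409-7073610 on the plus strand of GRCh37, and between EV and the NICD groups its level moved opposite to ZEB1. Among the NICD groups the levels did not mirror each other throughout. NICD4 had the highest mean of MIR200CHG (12.15 CPM) and NICD2 the lowest (5.61 CPM), with ZEB1 means of 1.85 and 1.92 CPM. In EV the host transcript stood at 2.10, 1.45 and 1.76 CPM, against 10.4, 11.6 and 9.34 CPM in NICD1 and 5.99, 4.63 and 6.23 CPM in NICD2. It stood at 6.65, 7.0 and 6.46 CPM in NICD3 and at 15.3, 9.45 and 11.7 CPM in NICD4. Every NICD library lay above every EV library. MIR200CHG rose by 2.53 ± 0.18, 1.64 ± 0.18, 1.90 ± 0.18 and 2.73 ± 0.18 on the log2 scale in NICD1 to NICD4 (limma adjusted p = 2.56e-08, 3.06e-06, 5.17e-07 and 1.01e-08). Read per read, there were 0.306 MIR200CHG reads for each ZEB1 read in EV and 9.86, 2.82, 5.54 and 6.53 in NICD1, NICD2, NICD3 and NICD4. This ratio needs no scaling between libraries, but it was not adjusted for transcript GC content (41.4% for ZEB1 and 56.0% for MIR200CHG). The mature microRNAs were not measured by polyadenylated RNA-seq.

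The 2 mature microRNAs are shown because their seeds, bases 2 to 8 in capitals, are the part that pairs with target mRNA. The seeds are alike but not identical, and the sequences are from RefSeq (GRCh38.p14).
hsa-miR-200c-3p: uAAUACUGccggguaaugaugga
hsa-miR-141-3p: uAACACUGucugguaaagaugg

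The upstream window of MIR200CHG is shown because it holds the sequence that ZEB and SNAI proteins are known to bind. It covers the 250 bases before the RefSeq start at chr12:6962995-6963244, plus strand of GRCh38.p14, with the E-box CACCTG in capitals, whose first base lies 78 bases before the start.
MIR200CHG: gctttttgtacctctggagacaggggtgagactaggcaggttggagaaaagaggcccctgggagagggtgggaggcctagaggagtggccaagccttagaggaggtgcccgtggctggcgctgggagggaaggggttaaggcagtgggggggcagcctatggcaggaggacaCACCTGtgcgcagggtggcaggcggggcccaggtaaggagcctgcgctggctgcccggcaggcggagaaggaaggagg
ZEB1 has 7 upstream windows in the RefSeq table, of which 2 hold an E-box. The window at chr10:31318966-31319215, plus strand of GRCh38.p14, holds 2, which begin 242 and 85 bases before the start and are in capitals.
ZEB1: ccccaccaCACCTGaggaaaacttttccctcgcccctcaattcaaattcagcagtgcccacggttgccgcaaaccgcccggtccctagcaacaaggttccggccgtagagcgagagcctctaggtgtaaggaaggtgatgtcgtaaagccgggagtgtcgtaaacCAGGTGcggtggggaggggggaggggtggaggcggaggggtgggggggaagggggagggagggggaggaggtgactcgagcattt
The E-box was searched as CACCTG on both strands (CAGGTG on the strand shown). It occurs in 17.5% of the 35116 upstream windows of the same length, and 2.53% hold 2 or more, so a match is a description of these letters only. The RBPJ core TGGGAA, searched on both strands, occurs in 20.8% of windows and in none of the windows of VIM, ZEB1 or MIR200CHG, and the VIM window holds no E-box of this form. Among the other members, the windows of PRRX1, TWIST2 and CDH2 held neither sequence, and that of ZEB2 held 1 RBPJ core.

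**Figure D2:**
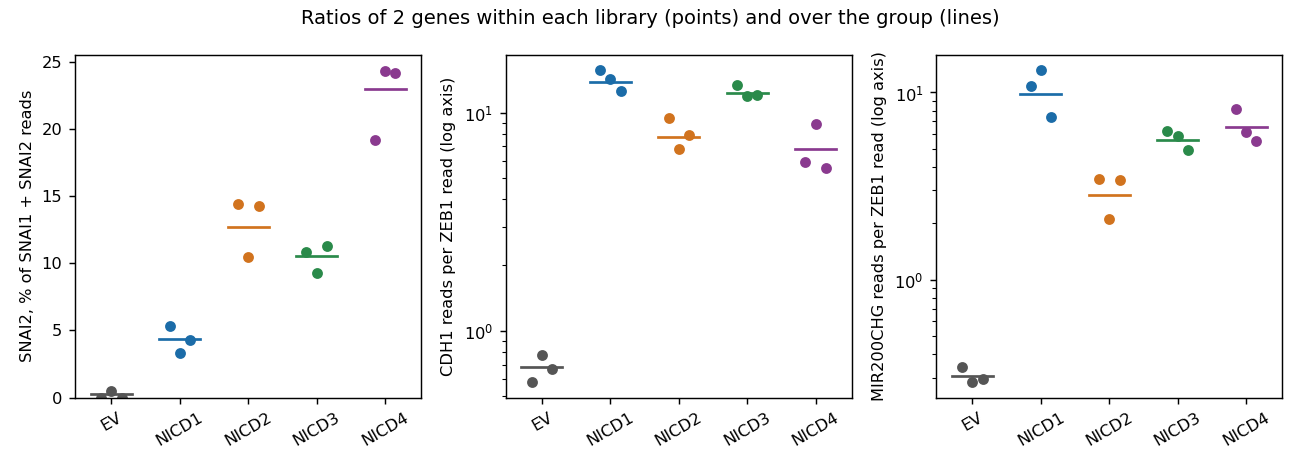
Ratios of reads of 2 genes within each library (points) and over the summed reads of a group (lines): SNAI2 as % of SNAI1 plus SNAI2 reads (linear axis), CDH1 reads per ZEB1 read and MIR200CHG reads per ZEB1 read (log axes). All NICD libraries lie above all EV libraries in the 3 panels, and NICD4 has the highest share of SNAI2.

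SNAI1 (Snail), an E-box repressor with a short-lived protein, lies at chr20:48599536-48605423 on the plus strand of GRCh37. It was, per kilobase of exon, the most abundant of ZEB1, ZEB2, SNAI1, SNAI2, PRRX1 and FOXC2 in every group. TWIST1 and TWIST2 are not part of this ranking. SNAI1 stood at 9.93, 12.2 and 9.38 CPM in EV, at 7.24, 5.89 and 7.42 CPM in NICD1, and at 10.3, 11.5 and 10.4 CPM in NICD2. Its level was 7.21, 8.05 and 9.07 CPM in NICD3 and 5.27, 7.20 and 4.38 CPM in NICD4. NICD2 overlapped EV, while the NICD1, NICD3 and NICD4 libraries all lay below the lowest EV library. SNAI1 fell by 0.61 ± 0.17 on the log2 scale in NICD1 (limma adjusted p = 0.00431) and by 0.92 ± 0.17 in NICD4 (adjusted p = 0.00014).

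In NICD3 the SNAI1 difference was -0.37 ± 0.17 (adjusted p = 0.0648) and in NICD2 it was 0.04 ± 0.17 (95% interval -0.32 to 0.40, adjusted p = 0.855). The NICD3 difference passed the threshold under other settings: with voom precision weights (-0.36, adjusted p = 0.0324), with only the NICD3 and EV libraries in the fit (adjusted p = 0.0294), and without NICD4 replicate 2 (adjusted p = 0.0275) or 3 (adjusted p = 0.0427). It also passed with the GC trend removed (-0.72, adjusted p = 0.00355) and scaled by total reads alone (-0.77, adjusted p = 0.00384). With the GC trend removed the NICD1 and NICD4 changes were -1.03 and -1.48. Of all tested genes, 31.1% and 27.1% fell further than SNAI1 in NICD1 and NICD4, so its change is of ordinary size for these comparisons.

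Among the NICD groups, SNAI1 was lower in NICD4 than in NICD2 by 0.96 ± 0.17 (adjusted p = 0.000272) and higher in NICD2 than in NICD1 by 0.65 ± 0.17 (adjusted p = 0.0101). The latter call was lost without NICD1 replicate 2 (0.54, adjusted p = 0.0537). SNAI1 was lower in NICD4 than in NICD3 by 0.55 ± 0.17 (adjusted p = 0.0147), a call lost without NICD3 replicate 3 (-0.47, adjusted p = 0.0673) or NICD4 replicate 3 (-0.39, adjusted p = 0.0750). That call was also lost with only those 2 groups fitted (adjusted p = 0.0583). NICD4 against NICD1 was -0.31 ± 0.17 (adjusted p = 0.177), and it passed the threshold only without NICD4 replicate 2 (-0.50, adjusted p = 0.0196). No tested comparison had SNAI1 called higher than in EV.

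SNAI2 (Slug), the paralogue of SNAI1 with the same E-box preference, lies at chr8:49830249-49834299 on the minus strand of GRCh37 and was nearly silent in EV, with 0, 2 and 0 reads. It had 6, 3 and 6 reads in NICD1 (0.410, 0.203 and 0.330 CPM) and 26, 33 and 35 reads in NICD2 (1.73, 1.34 and 1.73 CPM). There were 14, 18 and 31 reads in NICD3 (0.878, 0.824 and 1.16 CPM) and 14, 36 and 15 reads in NICD4 (1.25, 2.31 and 1.40 CPM). No NICD library overlapped an EV library, although all levels stayed at a few CPM or less. SNAI2 passed the filter on low counts only through the 9 libraries of NICD2, NICD3 and NICD4, so a difference from EV was in part set by passing it.

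Over the summed reads, SNAI2 per scaled read was 12.5 times (95% interval 2.90 to 112), 62.1 times (16.7 to 521), 38.6 times (10.3 to 326) and 68.6 times (18.3 to 579) its EV level in NICD1 to NICD4. These intervals cover counting error only and are wide because EV has 2 reads. On the log2 scale with its pseudocount, which bounds the change of such a gene, SNAI2 rose by 2.35 ± 0.35, 4.55 ± 0.35, 3.83 ± 0.35 and 4.55 ± 0.35 in NICD1 to NICD4 (limma adjusted p = 3.05e-05, 7.36e-08, 3.76e-07 and 4.61e-08). Only 0.139% and 0.185% of tested genes rose further in NICD2 and NICD4, and 0.384% and 2.25% in NICD3 and NICD1.

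The SNAI2 level differed among the NICD groups as well. NICD1 was the lowest: NICD2 exceeded it by 2.20 ± 0.35 (adjusted p = 0.000471), NICD4 by 2.20 ± 0.35 (adjusted p = 0.000567) and NICD3 by 1.48 ± 0.35 (adjusted p = 0.0203). The NICD3 call was lost without NICD1 replicate 2 (1.24, adjusted p = 0.102) and without NICD3 replicate 2 (1.57, adjusted p = 0.0529) or 3 (1.34, adjusted p = 0.103). NICD3, NICD2 and NICD4, in ascending order, were not separated in the fit of all 15 libraries. NICD3 against NICD2 was -0.72 (interval -1.47 to 0.03), NICD4 against NICD3 was 0.73 (interval -0.03 to 1.48) and NICD4 against NICD2 was 0.00 (interval -0.75 to 0.76). NICD4 against NICD3 passed the threshold with the GC trend removed (1.03, adjusted p = 0.0196), with a pseudocount of 4 (adjusted p = 0.0328) and with voom weights (adjusted p = 0.0394). NICD3 against NICD2 passed it with only those 2 groups fitted (adjusted p = 0.0497). As a share of SNAI1 plus SNAI2 reads, SNAI2 made up 0%, 0.516% and 0% in the EV libraries, 5.36%, 3.33% and 4.26% in NICD1, and 14.4%, 10.4% and 14.2% in NICD2. It made up 10.9%, 9.28% and 11.3% in NICD3 and 19.2%, 24.3% and 24.2% in NICD4. These shares do not overlap between EV, NICD1, NICD4 and the other two NICD groups. SNAI1 was the larger of the pair in every library, also per kilobase of exon (3.33 against 0.488 CPM per kb in NICD4).

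The remaining factors were at the limit of detection. ZEB2, the second ZEB repressor, had 1, 1 and 0 reads in EV and none in the 12 NICD libraries, where 3 reads over a group would be 0.0630, 0.0501, 0.0464 and 0.0800 CPM in NICD1 to NICD4. PRRX1, a homeobox inducer of mesenchymal fate, had 1 read in EV and 1 in NICD3. FOXC2, a forkhead factor linked to mesenchymal differentiation, had 2 reads in EV and 1 in NICD2. Differences of ZEB2, PRRX1 and FOXC2 between groups were not detectable at this depth.

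VIM, the mesenchymal intermediate filament, lies at chr10:17270258-17279592 on the plus strand of GRCh37 and changed the most of the members that fell. In EV it stood at 22.2, 21.8 and 22.2 CPM. It stood at 0.820, 0.339 and 0.715 CPM in NICD1 and at 1.93, 1.58 and 2.03 CPM in NICD2. VIM levels were 2.13, 2.29 and 2.20 CPM in NICD3 and 0.625, 1.74 and 0.745 CPM in NICD4. The 3 EV libraries differed by less than 1 CPM and lay far above all NICD libraries, in which VIM had 5 to 59 reads a library.

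VIM fell by 5.11 ± 0.32 on the log2 scale in NICD1, 34.5-fold (limma adjusted p = 8.02e-09), and by 3.55 ± 0.32 in NICD2, 11.7-fold (adjusted p = 4.30e-07). It fell by 3.29 ± 0.32 in NICD3, 9.78-fold (adjusted p = 7.60e-07), and by 4.48 ± 0.32 in NICD4, 22.3-fold (adjusted p = 2.42e-08). Only 1.14%, 2.59%, 2.77% and 1.43% of tested genes fell further in NICD1, NICD2, NICD3 and NICD4. With the GC trend removed the changes were -5.22, -3.62, -3.41 and -4.58.

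The residual VIM level differed among the NICD groups. It was higher in NICD2 and NICD3 than in NICD1 by 1.56 ± 0.32 (adjusted p = 0.00300) and 1.82 ± 0.32 (adjusted p = 0.00304), and lower in NICD4 than in NICD3 by 1.19 ± 0.32 (adjusted p = 0.00799). NICD4 against NICD2 was -0.93 ± 0.32 (adjusted p = 0.0207). This call was lost without NICD4 replicate 1 (-0.66, adjusted p = 0.101) or 3 (-0.78, adjusted p = 0.0794) and without NICD2 replicate 1 (-0.90, adjusted p = 0.0530) or 3 (-0.86, adjusted p = 0.0598). With only NICD4 and NICD2 fitted it was lost too (adjusted p = 0.0635). The ascending order was NICD1, NICD4, NICD2 and NICD3, in which the neighbours NICD1 and NICD4 (0.63, interval -0.07 to 1.32) and NICD2 and NICD3 (0.26, interval -0.43 to 0.95) were not separated. NICD4 replicate 2, at 1.74 CPM, lay apart from the other two NICD4 libraries and inside the range of NICD2.

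**Figure D3:**
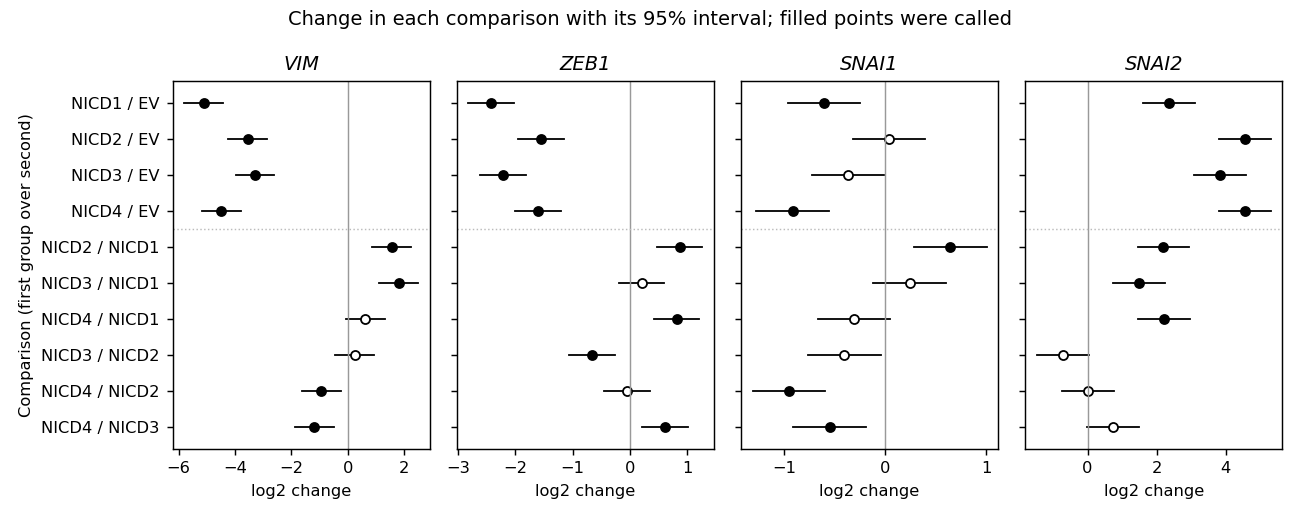
Log2 change of VIM, ZEB1, SNAI1 and SNAI2 (horizontal axis) in the 4 comparisons with EV and the 6 between NICD groups, with 95% intervals; filled points were called at an adjusted p under 0.05. VIM and ZEB1 lie left of 0 and SNAI2 right of 0 in every comparison with EV, and SNAI1 stays nearest to 0.

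Counted over the comparisons between NICD groups, 4 of 4 tested members were called in NICD2 against NICD1, 2 in NICD3 against NICD1, 2 in NICD4 against NICD1, 1 in NICD3 against NICD2, 2 in NICD4 against NICD2 and 3 in NICD4 against NICD3. Over all tested genes the called share was 36.9%, 6.64%, 28.4%, 15.0%, 63.9% and 49.5% in the same order. Each count is out of 4 genes, too few to set against these shares.

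VIM-AS1, a noncoding gene on the opposite strand beside VIM at chr10:17256238-17268897 (minus strand, GRCh37), does not overlap VIM in the deposited coordinates. It stood at 1.19, 1.83 and 1.33 CPM in EV and had 0, 3, 6 and 2 reads in NICD1 to NICD4, against 118 in EV. In NICD1 it was at least 23.6-fold lower, with the floor set at 3 reads for the whole group; the ratio of EV to group for NICD2, NICD3 and NICD4 was 29.8 (95% interval 9.94 to 146), 16.0 (7.15 to 44.6) and 27.9 (7.57 to 233). VIM-AS1 was called lower in all 4 comparisons, and it passed the filter only through EV. The library kit does not mark strand, so reads of overlapping genes cannot be assigned by strand. ZEB1-AS1, which overlaps ZEB1 by 1387 bases, had 45 reads in all 15 libraries against 761 of ZEB1. FOXC2-AS1, which overlaps FOXC2 by 511 bases, had 3. SNAI3-AS1, the remaining tested antisense gene, stood at 4.48, 3.53 and 3.79 CPM in EV and at 9.02, 4.76 and 5.12 CPM in NICD4, a called difference (0.62 ± 0.21, adjusted p = 0.0146). Without NICD4 replicate 1 it was 0.33, with the GC trend removed -0.03 and with total reads alone 0.14, none of them called.

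CDH2, the N-cadherin gene at chr18:25530930-25757410 on the minus strand of GRCh37, had 1 read in EV and 3, 2, 4 and 0 reads in NICD1 to NICD4. No difference was detectable at this depth, and AC110015.1, which overlaps 9169 bases of its span, had 150 reads in all. CDH1, the E-cadherin gene and the best-known target of the ZEB and SNAI repressors, stood at 3.57, 3.97 and 3.95 CPM in EV and between 11.1 and 16.4 CPM in the 12 NICD libraries. It rose by 1.90 ± 0.11, 1.97 ± 0.11, 1.93 ± 0.11 and 1.66 ± 0.11 on the log2 scale (limma adjusted p = 4.39e-09, 3.45e-09, 4.16e-09 and 1.49e-08). The CDH1 to ZEB1 read ratio was 0.582, 0.778 and 0.665 in the EV libraries, and between 5.57 and 15.6 in the NICD libraries.

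**Figure D4:**
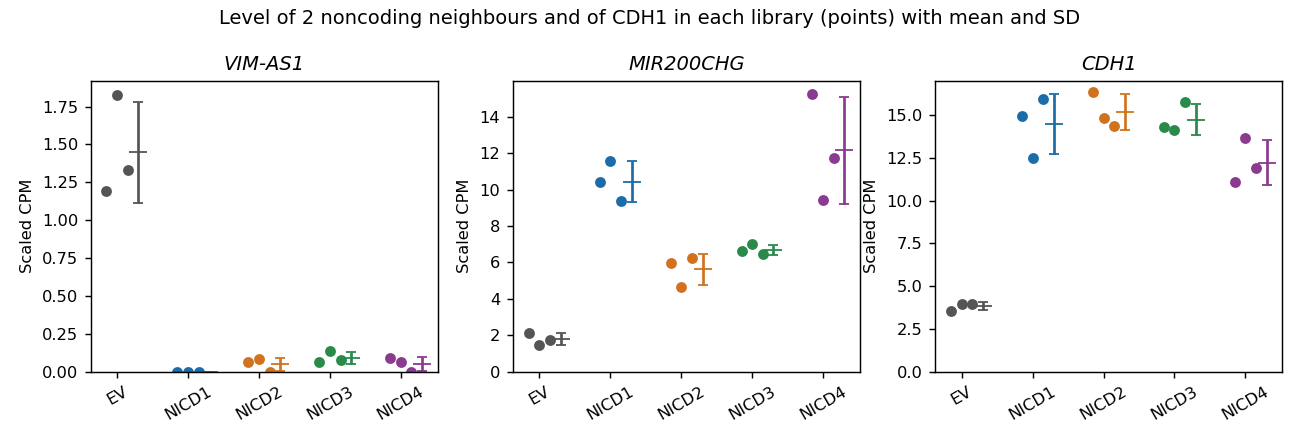
Scaled CPM (linear vertical axes) of VIM-AS1, MIR200CHG and CDH1 in each library; points are libraries, the horizontal mark is the group mean and the bar its SD (n = 3). VIM-AS1 is at or near 0 in the NICD libraries, and MIR200CHG and CDH1 have every NICD library above every EV library.

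Of 34 epithelial genes listed as targets of EMT repressors, 33 were tested, and 30, 29, 30 and 27 were called higher and 2, 0, 1 and 3 lower in NICD1, NICD2, NICD3 and NICD4. The shares over all tested genes were 28.6% to 35.7% called higher and 31.1% to 45.2% called lower. The median log2 change of the list was 1.44, 1.29, 1.34 and 1.17, beside medians of -0.11, -0.05, -0.08 and -0.18 over all genes. GRHL2, a grainyhead factor known to hold epithelial identity, went from 3 reads in EV to 310, 572, 476 and 134 in the NICD groups, with group-to-EV ratios of 172 (95% interval 58.3 to 838), 252 (85.8 to 1226), 195 (66.2 to 947) and 94.3 (31.6 to 463). It passed the filter only through the NICD libraries. The simple-epithelial keratin pair KRT8 and KRT18 rose by 2.51 to 3.55 and by 1.97 to 3.57, and AP1M2, a subunit of the epithelial sorting adaptor, rose by 2.46 to 2.85. Scaled by total reads alone, 24, 28, 24 and 21 of the list were called higher and 3, 2, 3 and 7 lower. With the GC trend removed, 27, 28, 26 and 26 were called higher and 1, 2, 1 and 4 lower. This list was drawn up with earlier results of these data known, as were those below.

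Of 35 mesenchymal effector genes, mostly matrix, matrix-modifying and cytoskeletal genes, 24 were tested, and 13, 19, 15 and 15 were called lower and 3, 2, 4 and 7 higher in NICD1 to NICD4, with medians of -0.46, -0.91, -0.60 and -0.74. Over all genes, 31.1% to 45.2% were called lower and 28.6% to 35.7% higher. The medians were -0.74, -1.004, -0.85 and -0.77 with the GC trend removed and -0.89, -1.17, -0.99 and -1.23 with total reads alone, when 18, 20, 18 and 17 were called lower. Without NICD4 replicate 1, 13 were called lower and 6 higher in NICD4, and 26 of the epithelial targets higher. Genes of the list with no read in a group lay below its medians even at their bounds. Setting them to these bounds therefore could not move the medians. The collagen gene COL3A1, with 439 reads in EV, had none in NICD1, NICD2 and NICD3, at least 88.0-fold, 111-fold and 119-fold lower, and 1 read in NICD4. COL3A1 and COL5A1, a further collagen gene, are among the calls in all 4 groups, and both passed the filter only through EV, so a lower level in the NICD groups was in part set by passing it. SPARC, a collagen-binding matrix protein, stood at 6.52 CPM in EV and at 0.259, 0.549, 1.23 and 1.16 CPM in the NICD groups, and was called lower in all 4. COL6A3, another collagen chain, fell by 2.12 to 3.28. FN1, the fibronectin gene, was named after its values were seen. Its log2 difference was -0.91 in NICD1 and -1.02 in NICD4, both called, and 0.03 in NICD2 and -0.42 in NICD3, which were not.

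Among 20 other EMT transcription factors and the E-protein partners with which TWIST proteins pair, 12 were tested, and 2, 4, 1 and 3 were called higher and 6, 4, 6 and 6 lower, with medians of -0.31, -0.08, -0.52 and -0.66. Over all genes, 28.6% to 35.7% were called higher and 31.1% to 45.2% lower. The medians were -0.50, -0.33, -0.70 and -0.28 with the GC trend removed and -0.74, -0.34, -0.92 and -1.14 with total reads alone. HMGA2, a chromatin architectural factor known to induce SNAI1 and TWIST1, stood at 100.3 CPM in EV and 45.3, 48.3, 43.1 and 30.5 CPM in the NICD groups. TCF12, an E-protein, went from 28.4 CPM to between 10.2 and 16.1 CPM, and FOXM1, a forkhead factor of proliferating cells, fell by 0.64 to 1.61 on the log2 scale. PRRX2, the paralogue of PRRX1, went the other way, from 24.3 CPM in EV to 64.1, 39.4, 45.3 and 68.2 CPM, and was called higher in all 4 groups.

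All 18 corepressors and chromatin enzymes through which SNAI and ZEB proteins act were tested, and 12, 10, 10 and 11 were called lower and 4, 3, 3 and 5 higher, with medians of -0.49, -0.31, -0.41 and -0.76. Over all genes, 31.1% to 45.2% were called lower and 28.6% to 35.7% higher. With total reads alone, 15, 13, 15 and 14 of the list were called lower, with medians of -0.92, -0.57, -0.81 and -1.25, and with the GC trend removed the medians were -0.34, -0.26, -0.23 and -0.51. PRMT5, an arginine methyltransferase that works with SNAI1, stood at 134 CPM in EV and 32.4, 70.7, 53.3 and 18.7 CPM in the NICD groups. BMI1, a Polycomb subunit, fell by 1.14 to 2.10, while WTIP, an Ajuba-family LIM protein, rose by 1.09 to 1.67. HDAC2, a histone deacetylase, was called lower in NICD1 (-1.17) and NICD4 (-2.51), and its differences in NICD2 and NICD3 were -0.33 and -0.51. Without NICD4 replicate 1, 11 of the list were called lower and 4 higher in NICD4 (median -0.61), and 7 of the other EMT factors were called lower (median -0.54).

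The families of the 2 structural members are given by their calls against EV. Among all tested genes, 28.6% to 35.7% were called higher and 31.1% to 45.2% lower. With 5 and 10 genes tested, the counts of these families say little beside such shares. Of 21 other cadherins 5 were tested, and 4, 2, 3 and 5 were called higher and 0 lower; with the GC trend removed 2, 2, 2 and 3 were called higher and 1 lower in each comparison. Without NICD4 replicate 1, 4 cadherins were called higher in NICD4, with a median of 1.00 in place of 1.35. CDH3, the P-cadherin gene, rose with CDH1, from 21.1 CPM in EV to 54.2, 42.6, 52.4 and 41.6 CPM. Of 15 other intermediate filament genes 10 were tested, and 4, 4, 4 and 3 were called higher and 1, 4, 3 and 3 lower, with medians of 0.16, -0.34, 0.07 and 0.17. These medians were -0.23, -0.39, -0.18 and -0.42 with the GC trend removed and -0.27, -0.59, -0.32 and -0.32 with total reads alone. The NICD4 median was 0.07 without NICD4 replicate 1. LMNA, the lamin A/C gene, went from 426 CPM to between 1035 and 1173 CPM, and LMNB1, the lamin B1 gene, from 124 CPM to between 30.2 and 69.4 CPM. PRPH, the peripherin gene, went from 1.70 CPM to between 5.11 and 7.62 CPM. All 3 were called in all 4 groups.

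**Figure D5:**
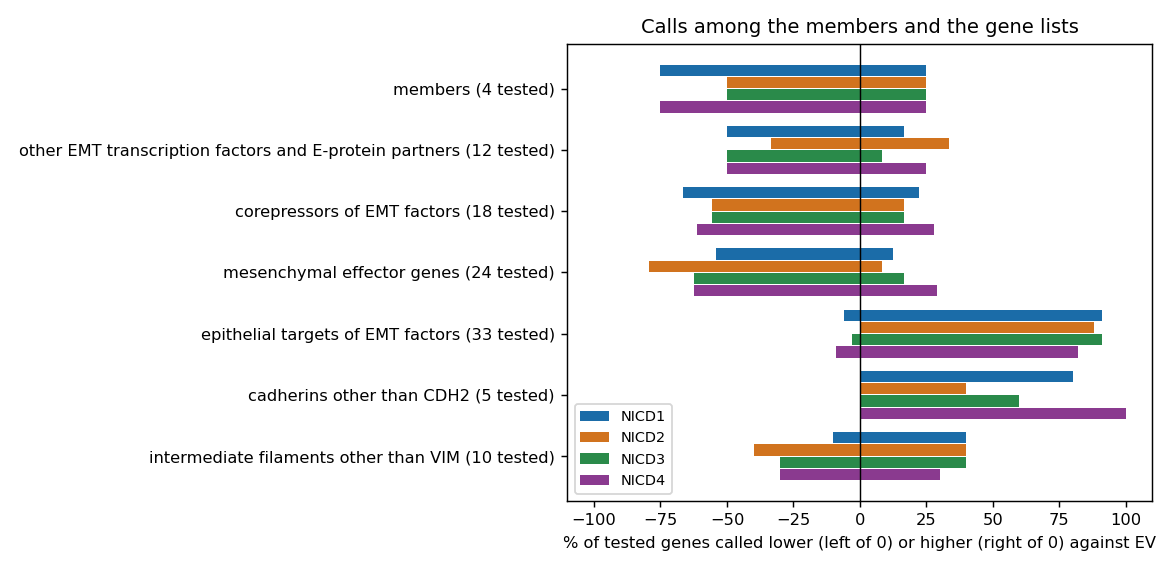
Share of the tested genes of each list called lower (left of 0) or higher (right of 0) against EV, in % of the genes tested in that list, with 1 bar for each NICD group. Epithelial targets lie mostly to the right and mesenchymal effectors and corepressors mostly to the left.

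Markers of other cell types are given for the whole lists, and their sums did not move in a common direction. The summed level of 14 colorectal epithelial markers, 13 of them listed, was 1510 to 1870 CPM in the EV libraries and 7540 to 20200 CPM in the NICD libraries, most of it KRT8 and KRT18, which are also in the list of epithelial targets. Of 8 endothelial markers, 6 were listed, and their sum was 17.4 to 18.7 CPM in EV and 0.411 to 1.96 CPM in the NICD libraries. Nearly all of it in EV was TIE1, an endothelial receptor gene (16.6 CPM), while KDR and EMCN had no read in EV. Of 7 immune markers, 6 were listed, with sums of 13.6 to 14.6 CPM in EV and 6.42 to 11.3 CPM in the NICD libraries. The T-cell gene CD3E stood at 3.66 CPM in EV and at 0.0411, 0, 0.0695 and 0.104 CPM in NICD1 to NICD4.

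The 11 fibroblast markers summed to 56.5 to 64.4 CPM in EV and 57.4 to 155 CPM in the NICD libraries, with FAP and PDGFRA at 0 in EV. The 15 astrocyte and glioma markers, 14 of them listed, summed to 56.7 to 59.5 CPM in EV and 48.9 to 87.4 CPM in the NICD libraries, and FABP7 and PDGFRA had no read in EV. Of the 8 smooth muscle markers, 7 were tested, and 4, 6, 4 and 5 were called lower and 1, 0, 0 and 0 higher in NICD1 to NICD4, with medians of -0.90, -1.16, -0.66 and -1.54. Among all tested genes, 31.1% to 45.2% were called lower and 28.6% to 35.7% higher. The smooth muscle markers summed to 128 to 138 CPM in EV and 79.2 to 83.5 CPM in NICD2. Their sums were 79.7 to 86.9 CPM in NICD4, and 116 to 148 CPM over the NICD1 and NICD3 libraries. The part of other cell types in the VIM and ZEB1 levels was not tested.

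The genes whose levels followed each tested member most closely over the 15 libraries are given by Pearson's r among 13279 candidate genes, as a description. The libraries fall into EV and NICD groups, so r largely repeats the difference between these. For ZEB1 they were ADNP (r = 0.980), PDGFC (0.972) and CREB5 (0.972), and CREB5 went from 19.2 CPM in EV to between 0.0820 and 0.395 CPM. For VIM they were TDRD7 (0.977), ADAM19 (0.975), a metalloprotease gene that went from 29.5 CPM to between 1.85 and 4.64 CPM, and RERE (0.973). For SNAI1 they were PHC3 (0.973), SMN2 (0.972), whose reads cannot be separated with certainty from those of its near-identical copy SMN1, and TCF3 (0.956), an E-protein gene at 135 CPM in EV and 116, 139, 124 and 94.0 CPM in the NICD groups. For SNAI2 they were ASB2 (0.972), at 0.273 CPM in EV and 2.05, 12.4, 4.74 and 7.24 CPM in the NICD groups, FAM114A1 (0.967) and TNFRSF21 (0.953).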

How the data were processed

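Per the labels' protocols, polyadenylated RNA was sequenced from TruSeq v2 libraries; per the submitters' processing notes, TopHat2 2.0.6, TopHat, HTSeq and GRCh37 were used. The authors deposited log2 values of read counts plus 1 per gene, not scaled for library size; all 470280 values gave whole reads within 0.001, so counts were recovered (11630195 to 27704492 reads a library). Symbols came from a gene name table and GENCODE, transcript GC content and exon length from GENCODE (GRCh38). Counts were scaled by TMM factors, the filter kept genes with at least 0.548 CPM (10 reads at the median depth) in 3 libraries and 15 reads in all, and limma 3.58.1 (R 4.3.3; log2 of scaled reads + 1, trended robust prior, all 15 libraries, two-sided) gave changes. This code was tested on simulated data in which few genes changed, in NICD1 alone. Such a test does not cover data in which many genes change, as here. Intervals of log2 changes are 95% limma intervals and come from the spread between libraries. Intervals of read ratios and the floors are at 95% and cover counting error only.

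The members and lists were chosen with earlier results of these data known. All members are named; of each list, the 4 tested genes with the largest mean absolute change against EV and at least 1 CPM in a group, all antisense and host transcripts, and the 3 genes most like each tested member. Alternatives were total reads or median-of-ratios scaling, pseudocounts of 0.5 and 4, no filter or a stricter one of 30 reads, voom weights, fits of 2 groups, removal of the GC trend (loess span 0.3), a replicate block and leaving out each library. Same-numbered libraries of NICD3 and EV deviated from their group means together (lowest correlation 0.16, all 3 over 0.1), as in no other of the 10 pairs of groups. Differently numbered libraries could do so too, with a correlation of 0.33 for EV replicate 2 and NICD3 replicate 3. The main fit had no replicate term, so its changes are unpaired. The closest replicates, NICD2 1 and 3, differed by a chi-square of 1.31 per gene, where counting noise alone would give 1. The other replicate pairs ranged from 2.53 to 44.7. Both NICD2 libraries were kept as separate, and whether they are repeats of the same RNA was not tested.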

Additional observations from a re-analysis of the deposited data

How the results depend on the processing

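Of 40 member changes under 25 alternatives each, 956 of 1000 values kept direction and side of the threshold. Among the rest, 21 lost the call, 12 gained it and 11 reversed. Every called change of VIM and ZEB1 against EV kept its call in all 25. Those of SNAI2 did so too, but SNAI2 passed the filter only through NICD2, NICD3 and NICD4. Its calls against EV were therefore in part set by passing it. Reversals touched 3 differences near 0: SNAI1 in NICD2 against EV (0.04) became -0.17 with the GC trend removed and -0.22 with total reads alone, and ranged from -0.037 to 0.149 over left-out libraries; SNAI2 in NICD4 against NICD2 (0.00) became -0.21 with total reads alone and ranged from -0.26 to 0.17; ZEB1 in NICD4 against NICD2 (-0.05) became 0.47 (adjusted p = 0.0482) with the GC trend removed and 0.007 with median-of-ratios scaling, and ranged from -0.16 to 0.07. Of the member counts, 332 of 350 stayed within 1.5 times. NICD3 against NICD2 (1 member) had 0 with the GC trend removed, 0 without the filter, 3 with only the 2 groups fitted and 0 to 1 over left-out libraries. With only the 2 groups fitted, 1 member was called in NICD4 against NICD1, 1 in NICD4 against NICD2 and 1 in NICD4 against NICD3. Over left-out libraries the count was 1 to 2 in NICD3 against NICD1, 1 to 2 in NICD4 against NICD2 and 1 to 3 in NICD4 against NICD3. The cause was not tested.

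The replicate block changed no member call or count: SNAI1 in NICD3 against EV stayed at -0.37 (adjusted p = 0.0682). That block used the replicate numbers of all groups. Of 30 same-numbered pairs of libraries, 16 had correlated deviations over 0.1 (range -0.66 to 0.57). Whether any of the numbers mark true pairs is not shown by these values. Low depth limits ZEB2, CDH2, PRRX1, FOXC2 and SNAI2 in EV, where a few reads decide a ratio.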
